A study of Homo sapiens with 12 samples.

Results

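The interleukin-1 (IL-1) family and its receptors were described here through 9 genes of the 57773 in the count tables. They were chosen by name with earlier results of the same counts known: the ligands IL1A, IL1B, IL18 and IL33, the secreted antagonist IL1RN, the receptors IL1R1 and IL1RL1, the decoy receptor IL1R2 and the shared receptor subunit IL1RAP. IL1A had been singled out because of its values, so its levels are given as a description with no test. Of the 9 genes, 8 passed the filter on low counts that 21518 genes passed in all, and IL1RN did not. Counts of members that passed a test are therefore over the 7 tested genes other than IL1A.

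The 12 libraries held mRNA of WI-38, a human diploid fibroblast line from lung, and formed 4 groups of 3. All cells had been transfected with a pool of siRNAs at 25 nM and were kept at population doubling levels between 15 and 25. The siCtrl proliferating group received a non-targeting pool and spent 8 days in the vehicle DMSO, while the siCtrl, siNTRK2 and siBDNF senescent groups spent 8 days in 50 µM etoposide, which damages DNA through topoisomerase II and drives these cells into senescence. The siNTRK2 pool targeted the mRNA of the neurotrophin receptor TrkB and the siBDNF pool that of its ligand BDNF, so that the comparisons asked what senescence and the loss of either gene did to the transcriptome. Neither pool was given to proliferating cells, and all cells came from a single line. The study's methods say of its cell culture work in general that experiments were repeated independently with all groups handled together, but the labels do not tie a library or its number to an experiment.

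IL-1α and IL-1β signal through IL1R1, which pairs with IL1RAP and passes the signal through MYD88 and the IRAK kinases to NF-kB. IL1RN occupies IL1R1 without signalling, IL1R2 captures ligand without signalling, and IL-33 uses IL1RL1 (also named ST2) together with IL1RAP, whereas IL-18 has receptor chains of its own. In senescent fibroblasts IL-1α is known as an upstream signal of the senescence-associated secretory phenotype (SASP), the mix of cytokines and proteases that these cells release.

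Libraries held between 31567912 and 72328151 counts. NTRK2 had 0 counts over the siNTRK2 group, against 32 over the siCtrl senescent and 62 over the siBDNF group, and BDNF was at 47.1 normalized CPM (counts scaled to library size) in the siBDNF group against 162 in siCtrl senescent cells. Between the siCtrl groups the cell cycle inhibitor CDKN1A rose from 936 to 2877 CPM, and the proliferation marker MKI67 fell from 16.4 to 1.28 CPM. Relative to siCtrl senescent cells, CDKN1A was lower and MKI67 and LMNB1 were higher with siNTRK2. With siBDNF MKI67 was higher, while CDKN1A and LMNB1 did not pass the edgeR test (adjusted p = 0.548 and 0.375). CDKN1A was at 2032 CPM with siNTRK2 and 2793 CPM with siBDNF, and MKI67 at 4.19 and 2.35 CPM. LMNB1 was at 39.6 CPM in proliferating, 2.15 in siCtrl senescent, 3.29 in siNTRK2 and 1.94 CPM in siBDNF cells. Whether these differences have a part in the values of the members was not tested. All 8 fibroblast markers examined (collagens, PDGFRB, THY1, VIM, DCN and LUM) were present, with a summed level of 31837 to 33775 CPM in proliferating libraries and 23048 to 29956 CPM in senescent ones. Senescent libraries also held more genes with at least 1 count, 26706 to 32183 per library against 24315 to 25396 in proliferating libraries. Whether this bears on the members near 0 in proliferating cells was not tested, and counts of such genes are given beside IL1RN and IL33.

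Of the 9 genes, 6 lie on chromosome 2 in a pair of clusters (coordinates on GRCh37, with gene models of GENCODE v44 lifted to that build). IL1R2 (ENSG00000115590, chr2:102608422-102645006), IL1R1 (ENSG00000115594, chr2:102681004-102796334) and IL1RL1 (ENSG00000115602, chr2:102927962-102968497) lie on the plus strand within a receptor cluster of 460.6 kb that ends with IL18RAP. IL1A (ENSG00000115008, chr2:113531502-113542070) and IL1B (ENSG00000125538, chr2:113587328-113594393) lie on the minus strand, 45.3 kb apart, and IL1RN (ENSG00000136689, chr2:113856892-113891593) lies on the plus strand at the far end of the ligand cluster. IL33 (ENSG00000137033) is at chr9:6215786-6257983, IL18 (ENSG00000150782) at chr11:112013976-112034819 and IL1RAP (ENSG00000196083) at chr3:190231840-190377539. IL1RL1 and IL18R1, its neighbour on the same strand, share 95 exon bases, and IL1R1 shares 11 exon bases with the antisense gene IL1R1-AS1, so reads from these stretches may not be assigned to a single gene.

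The upstream sequences of IL1A, IL1B and IL1RL1 are shown because these members had the same order of the 3 senescent groups, with no overlap between them. They were thus chosen by their values, and how many of all genes separate in this way was not counted. The sequences were taken from RefSeq (GRCh38.p14), placed on GRCh37 by exact match, written 5′ to 3′ on the strand of the gene and stopped before the first annotated exon base. Capitals mark the letters TGANTCA of AP-1 and TATAAA of the TATA box, searched on both strands, and the IL1RL1 sequence precedes the more downstream of its RefSeq starts.
IL1A, chr2:113542071-113542320, minus strand: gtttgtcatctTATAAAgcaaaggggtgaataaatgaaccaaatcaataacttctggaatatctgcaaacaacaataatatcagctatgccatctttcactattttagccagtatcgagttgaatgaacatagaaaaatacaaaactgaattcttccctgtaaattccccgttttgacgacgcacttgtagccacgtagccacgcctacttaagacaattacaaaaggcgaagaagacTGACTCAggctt
IL1B, chr2:113594394-113594606, minus strand: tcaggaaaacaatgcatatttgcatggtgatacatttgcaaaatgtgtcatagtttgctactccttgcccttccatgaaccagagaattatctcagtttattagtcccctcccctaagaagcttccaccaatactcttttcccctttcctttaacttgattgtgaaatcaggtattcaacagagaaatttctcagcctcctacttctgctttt
IL1RL1, chr2:102953467-102953607, plus strand: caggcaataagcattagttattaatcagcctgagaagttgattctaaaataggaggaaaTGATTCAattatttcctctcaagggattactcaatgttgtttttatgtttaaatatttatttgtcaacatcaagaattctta
The IL1A window shown held an AP-1 match 12 to 6 bases before its start. IL1RL1 held 1 at 191 to 185 bases before its downstream start, while the IL1B window held none of the 3 motifs searched. The window before the upstream start of IL1RL1, not shown, held no AP-1 match and had TATAAA 29 to 24 bases before that start. Sequences were matched for 8 of the 9 members (not IL18), with 17 windows of 250 bases in all. AP-1 letters were found in 4 of them, which belonged to IL1A, IL1RN and IL1RL1, the windows of IL1A sharing a site. The NF-kB consensus was found in 1, upstream of IL1R2, and TATAAA in 5. Among 34788 RefSeq windows of the same length, 6.59% held the AP-1 letters, 9.95% the NF-kB consensus and 10.8% TATAAA. These matches describe letters, not bound sites.

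In etoposide-induced senescence, relative to proliferating cells, IL1B, IL33, IL1R2 and IL1RL1 mRNAs rose, IL1R1 mRNA fell slightly, and IL18 and IL1RAP mRNAs did not pass the test (quasi-likelihood test of edgeR, called where the Benjamini-Hochberg adjusted p was under 0.05). Of the 7 members, 4 were called higher, where 29.8% of all genes were called higher, and 1 was called lower, where 28.3% of all genes were. The 4 that rose had all changed over 2-fold, a size reached by 16.7% of all genes in either direction. Nothing about the family is read from these counts, because IL33, IL1R2 and IL1RL1 passed the filter only through their senescent libraries: the filter asked for about 0.175 CPM in at least 3 libraries, which 0, 0 and 1 of the proliferating libraries reached for these genes. A member let in this way had to be higher in senescence. IL1B, IL18, IL1R1 and IL1RAP reached that level in all proliferating libraries, and of these IL1B rose, IL1R1 fell and the other 2 did not pass the test.

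Of the tested members, only IL1B was called lower with TrkB silencing. This was 1 of 7 members lower and 0 higher, where 10.0% of all genes were called lower and 11.1% higher. The change in IL1B was over 2-fold, as for 0.957% of all genes. The other 6 members did not pass the test, which does not show that they were unchanged. Their log2 fold changes went from -1.06 (IL33) to 0.68 (IL18). BDNF silencing instead raised 3 of the 7 members, IL1B, IL1RL1 and IL1R1, and lowered none, where 10.3% of all genes were called higher and 10.2% lower. None of these 3 rises was over 2-fold, a size that 0.609% of all genes reached. These comparisons share the siCtrl senescent libraries, and the siRNA groups were therefore also compared directly. In siNTRK2 relative to siBDNF cells, IL1B, IL1RL1, IL33 and IL1R1 were lower, 4 of 7 members against 7.86% of all genes, and none was higher, against 8.84%. IL1B, IL1RL1 and IL33 differed over 2-fold, as did 1.16% of all genes. The median over the 7 members was -0.14 for siNTRK2 and 0.27 for siBDNF relative to siCtrl, and -0.17 in the direct comparison, beside medians over all genes of -0.0024, 0.0040 and -0.0037.

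**Figure D1:**
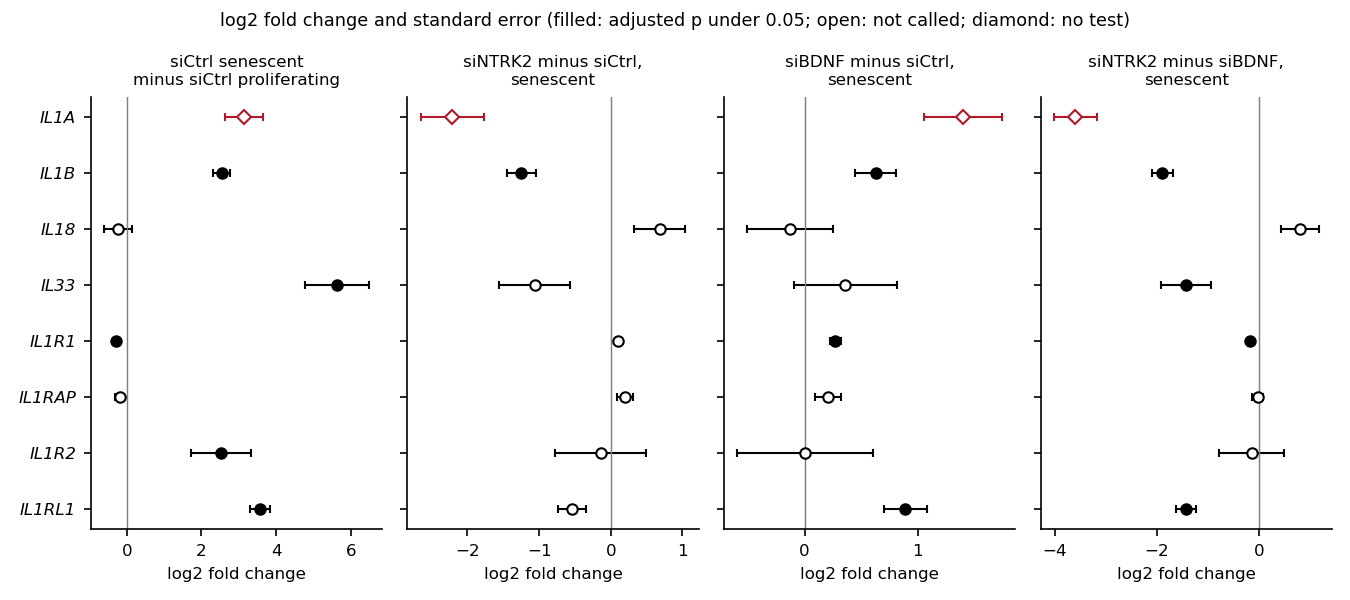
log2 fold change (x axis, with its own range in each panel) of the 8 members that passed the filter on low counts, in the 4 comparisons; bars are standard errors of the fit on 3 libraries per group. IL1A (red diamonds) is given without a test. In the panel of siNTRK2 against siBDNF, IL1A, IL1B, IL33 and IL1RL1 lie left of 0, at -3.60, -1.89, -1.42 and -1.43.

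IL1A, the ligand that acts both in the nucleus and at the cell surface, was scarce in every group. Proliferating libraries 1 to 3 held 4, 7 and 0 counts of IL1A (0.0718, 0.0997 and 0 CPM), and siCtrl senescent libraries held 38, 23 and 42 (0.677, 0.396 and 0.727 CPM). With siNTRK2 the counts of IL1A were 5, 9 and 7 (0.0808, 0.181 and 0.130 CPM), and with siBDNF they were 48, 107 and 116 (1.47, 1.58 and 1.69 CPM). The siNTRK2 libraries thus overlapped with the proliferating ones, the siCtrl senescent libraries lay above both, and the siBDNF libraries were the highest of all, with no overlap. On the log2 scale the difference in IL1A was 3.14 (SE 0.497) for siCtrl senescent minus proliferating cells, -2.21 (SE 0.443) for siNTRK2 minus siCtrl, 1.40 (SE 0.343) for siBDNF minus siCtrl and -3.60 (SE 0.420) for siNTRK2 minus siBDNF. Without proliferating replicate 2, which held 7 of the 11 counts of that group, the IL1A difference between senescent and proliferating cells was 3.74.

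IL1B, the secreted inflammatory ligand, was more abundant than IL1A in each group and followed the same order of groups. Its counts were 27, 28 and 27 in proliferating libraries (0.484, 0.399 and 0.731 CPM) and 136, 204 and 177 in siCtrl senescent libraries (2.42, 3.51 and 3.06 CPM). They were 64, 80 and 62 with siNTRK2 (1.03, 1.61 and 1.15 CPM) and 123, 341 and 346 with siBDNF (3.75, 5.04 and 5.04 CPM). No group overlapped with another for IL1B, and the siNTRK2 libraries stayed above the proliferating ones. IL1B rose 5.84-fold in senescence (log2 fold change 2.54, SE 0.233, edgeR adjusted p = 8.83e-10). TrkB silencing lowered IL1B by 1.25 on the log2 scale, or log2 fold change -1.25 (SE 0.202, edgeR adjusted p = 6.54e-05), so that siCtrl cells held 2.39 times the level of siNTRK2 cells. BDNF silencing raised IL1B 1.55-fold (log2 fold change 0.63, SE 0.181, edgeR adjusted p = 0.0134). That rise did not pass the test without siCtrl senescent replicate 1 (0.50, edgeR adjusted p = 0.0968) or without siBDNF replicate 2 (0.56, edgeR adjusted p = 0.0878) or 3 (0.57, edgeR adjusted p = 0.0771). Between the silenced groups IL1B differed by -1.89 (SE 0.199, edgeR adjusted p = 1.32e-07), siBDNF cells holding 3.70 times the level of siNTRK2 cells.

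The ratio of IL1A to IL1B CPM within a library differed between the siRNA groups. It was 0.113 to 0.279 in siCtrl senescent, 0.0781 to 0.113 in siNTRK2 and 0.314 to 0.390 in siBDNF libraries, so that siBDNF libraries had the most IL1A per IL1B, with no overlap with the other senescent groups.

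Monocytes and macrophages are a known source of IL-1, and markers of these cells were measured beside IL1B. The 6 markers (PTPRC, CD14, CD68, LYZ, CSF1R and AIF1) summed to 50.0 to 57.1 CPM in proliferating, 108 to 116 CPM in siCtrl senescent, 77.5 to 81.1 CPM in siNTRK2 and 181 to 184 CPM in siBDNF libraries, which is the order of groups seen for IL1B. Nearly all of this was CD68, a lysosomal protein that fibroblasts also make, at 53.0, 109, 77.5 and 180 CPM in the respective groups. PTPRC and LYZ, which define blood cells and myeloid cells, had 0 counts in proliferating libraries and 162 and 43 counts over the siCtrl senescent group. Of the 5 markers tested, 4 were called higher in senescence, where 29.8% of all genes were. PTPRC, LYZ and CD14 passed the filter through their senescent libraries, so they had to be higher there. Only CD68 was called lower with siNTRK2 and only CD68 higher with siBDNF, where 10.0% and 10.3% of all genes were. The part of these markers in the IL1B result was not tested, and in bulk RNA fewer cells of a type cannot be told apart from less RNA per cell.

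**Figure D2:**
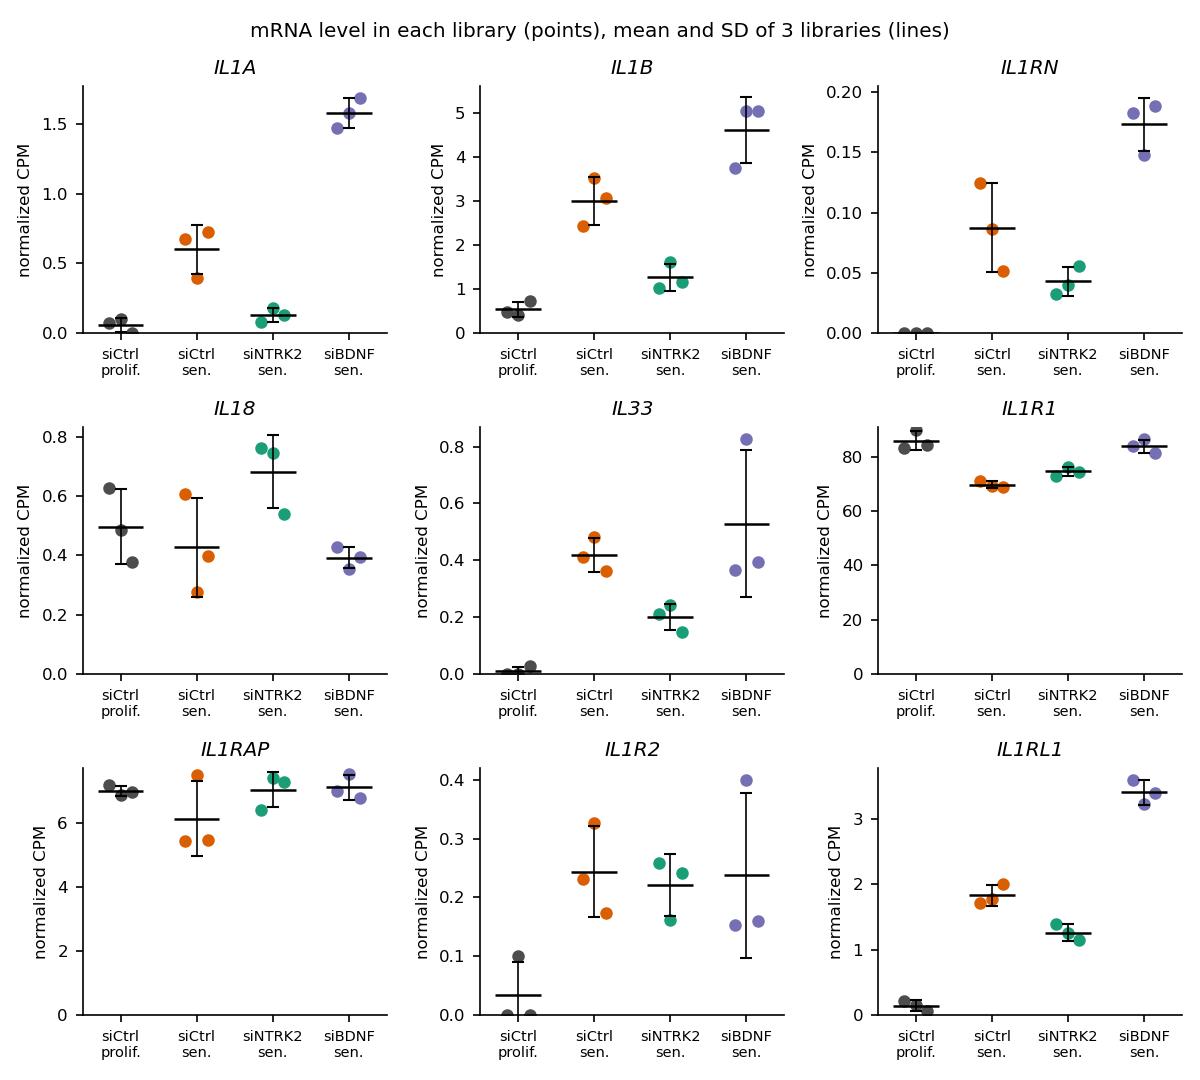
Normalized CPM (y axis, linear, from 0) of the 9 members in each library (points) by group (x axis), with the mean and SD of 3 libraries as lines. IL1A, IL1B and IL1RL1 were highest with siBDNF (means 1.58, 4.61 and 3.40 CPM) and lower with siNTRK2 (0.131, 1.27 and 1.26 CPM), while IL1R1 stayed between 69.8 and 86.0 CPM in all groups.

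IL1RN, the natural antagonist of IL1R1, was barely detected. Proliferating libraries held 0 counts of IL1RN, which gives an upper limit of 3 counts over the group, and siCtrl senescent libraries held 7, 5 and 3. Its counts were 2, 2 and 3 with siNTRK2 and 6, 10 and 13 with siBDNF. With the proliferating group set at the limit of 3 counts, IL1RN was 4.74-fold higher in siCtrl senescent cells. This figure leaves out the counting error of the 15 senescent counts, so it is not a lower limit of the fold. The siBDNF libraries (0.148 to 0.189 CPM) lay above the siCtrl senescent ones (0.0519 to 0.125 CPM) without overlap, and the latter overlapped with siNTRK2 (0.0323 to 0.0559 CPM). The gain was not particular to IL1RN: of 29551 genes with 0 counts over the proliferating group, 7888 had at least 1 and 938 had at least the 15 counts of IL1RN over the siCtrl senescent group. In the opposite direction, 23075 genes had 0 counts over the siCtrl senescent group, of which 1412 had at least 1 and 14 had at least 15 counts over the proliferating group. Whether this broad gain of low counts has a part in the values of IL1RN, IL33, IL1R2, IL1A and IL1RL1 was not tested.

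IL18, released after cleavage by caspase-1, did not follow the pattern of IL1A and IL1B. Its counts were 35, 34 and 14 in proliferating, 34, 16 and 23 in siCtrl senescent, 47, 37 and 29 in siNTRK2 and 14, 24 and 27 in siBDNF libraries. Neighbouring groups in the order of its levels overlapped throughout, with siNTRK2 highest at 0.682 ± 0.123 CPM (SD, n = 3) and siBDNF lowest at 0.392 ± 0.0364 CPM (SD, n = 3). The silenced groups, at the ends of that order, did not overlap (0.540 to 0.760 CPM with siNTRK2, 0.355 to 0.427 CPM with siBDNF). No comparison of IL18 passed the test. Its log2 fold change was -0.24 (SE 0.371, edgeR adjusted p = 0.605) in senescence, 0.68 (SE 0.362, edgeR adjusted p = 0.202) with siNTRK2, -0.13 (SE 0.381, edgeR adjusted p = 0.868) with siBDNF and 0.81 (SE 0.369, edgeR adjusted p = 0.143) between the silenced groups.

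IL33, a nuclear alarmin set free from damaged cells, went from almost no counts to a low level. Proliferating libraries held 0, 0 and 1 counts of IL33 and siCtrl senescent libraries 23, 28 and 21 (0.410, 0.482 and 0.364 CPM). With siNTRK2 there were 13, 12 and 8 counts (0.210, 0.242 and 0.149 CPM), and with siBDNF 12, 56 and 27 (0.366, 0.827 and 0.393 CPM). The siNTRK2 libraries lay below every siCtrl and siBDNF library, and the latter overlapped with each other, siBDNF replicate 2 standing above the rest. From the 72 and 1 counts, the ratio of IL33 between siCtrl senescent and proliferating cells was 68.2. Its 95% exact interval for counting error was 11.9 to 2731. The log2 fold change of the fit was 5.63 (SE 0.851, edgeR adjusted p = 3.53e-06). IL33 passed the filter only through its senescent libraries, so it had to be higher there and this p is no support for a rise. Of 31403 genes with at most 1 count in proliferating cells, 48 reached at least the 72 counts of IL33 in siCtrl senescent cells. Relative to siCtrl, IL33 changed by -1.06 (SE 0.498, edgeR adjusted p = 0.141) with siNTRK2 and by 0.36 (SE 0.456, edgeR adjusted p = 0.665) with siBDNF, neither passing the test. It was lower in siNTRK2 than in siBDNF cells (log2 fold change -1.42, SE 0.492, edgeR adjusted p = 0.0486), a call that was lost whichever library of either group was left out. Without siBDNF replicate 2 that difference was -0.91 (edgeR adjusted p = 0.355).

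The signalling receptor IL1R1 was by far the most abundant of the 9 mRNAs, and its changes were small. It was at 83.4, 89.9 and 84.5 CPM in proliferating, 71.2, 69.3 and 68.8 CPM in siCtrl senescent, 73.1, 76.2 and 74.5 CPM in siNTRK2 and 83.8, 86.4 and 81.5 CPM in siBDNF libraries. The siCtrl senescent libraries were the lowest, and the siBDNF libraries overlapped with the proliferating ones. IL1R1 fell by 0.30 on the log2 scale in senescence (SE 0.0472, edgeR adjusted p = 5.90e-06) and rose with siBDNF (log2 fold change 0.27, SE 0.0473, edgeR adjusted p = 2.19e-04). With siNTRK2 the change in IL1R1 did not pass the test (0.10, SE 0.0473, edgeR adjusted p = 0.162), although its libraries did not overlap with siCtrl. It was lower with siNTRK2 than with siBDNF by a log2 fold change of -0.17 (SE 0.0472, edgeR adjusted p = 0.0135), which did not pass without siBDNF replicate 2 (-0.14, edgeR adjusted p = 0.102).

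IL1RAP, the subunit that both IL1R1 and IL1RL1 need to signal, stayed between 5.45 and 7.55 CPM. Its level was 7.18, 6.87 and 6.98 CPM in proliferating libraries, 5.45, 7.49 and 5.47 CPM in siCtrl senescent, 6.42, 7.42 and 7.30 CPM in siNTRK2 and 7.02, 7.55 and 6.78 CPM in siBDNF libraries. All neighbouring groups overlapped for IL1RAP, with siCtrl senescent replicate 2 above the other libraries of its group. No comparison passed the test, with log2 fold changes from -0.19 to 0.21. Without siCtrl senescent replicate 2, IL1RAP was called lower in senescence (-0.36, edgeR adjusted p = 0.00828) and higher with siNTRK2 (0.37, edgeR adjusted p = 0.0191) and siBDNF (0.38, edgeR adjusted p = 0.0140).

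IL1R2, the decoy receptor, was low in all senescent groups and did not separate them. Counts of IL1R2 were 0, 7 and 0 in proliferating, 13, 19 and 10 in siCtrl senescent, 16, 8 and 13 in siNTRK2 and 5, 27 and 11 in siBDNF libraries. The senescent groups overlapped, while the proliferating libraries lay below them. IL1R2 was called higher in senescence (log2 fold change 2.52, SE 0.797, edgeR adjusted p = 0.00875). It passed the filter only through its senescent libraries, so it had to be higher there and this p is no support for a rise. The differences of IL1R2 between the senescent groups were small beside their errors, -0.14 (SE 0.635, edgeR adjusted p = 0.913) with siNTRK2 and 0.0041 (SE 0.598, edgeR adjusted p = 0.998) with siBDNF. Within a library, IL1R1 exceeded IL1R2 in CPM by 212 to 549 times in senescent cells.

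IL1RL1, the receptor of IL-33, had the largest fold change of the 4 receptor genes in senescence. Its counts were 12, 11 and 2 in proliferating libraries (0.215, 0.157 and 0.0541 CPM) and 96, 103 and 116 in siCtrl senescent libraries (1.71, 1.77 and 2.01 CPM). They were 86, 62 and 61 with siNTRK2 (1.39, 1.25 and 1.14 CPM) and 118, 218 and 233 with siBDNF (3.60, 3.22 and 3.39 CPM). The order of groups was that of IL1A and IL1B, with no overlap between any of them. IL1RL1 was 11.9-fold higher in senescence (log2 fold change 3.57, SE 0.276, edgeR adjusted p = 4.02e-11). It passed the filter through its senescent libraries, so it had to be higher there and this p is no support for a rise. With siBDNF IL1RL1 rose 1.85-fold (log2 fold change 0.89, SE 0.187, edgeR adjusted p = 0.00114). With siNTRK2 its change of -0.54 did not pass the test (SE 0.200, edgeR adjusted p = 0.0571), but did so by the Wald test of DESeq2 (-0.54, adjusted p = 0.0388). Between the silenced groups IL1RL1 differed by -1.43 (SE 0.194, edgeR adjusted p = 6.77e-06).

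IL18R1, which shares exon bases with IL1RL1, moved the other way in senescence, with a log2 fold change of -0.57 (SE 0.227, edgeR adjusted p = 0.0354) and means of 1.45 CPM in proliferating and 0.990 CPM in siCtrl senescent cells. The ratio of IL1RL1 to IL18R1 CPM went from 0.0455 to 0.135 in proliferating libraries to 1.57 to 2.37 in siCtrl senescent ones. Mast cells carry abundant IL1RL1, and their 4 markers (KIT, CPA3, TPSAB1 and MS4A2) summed to 1.06 to 1.68 CPM in proliferating, 1.90 to 2.31 CPM in siCtrl senescent, 1.75 to 2.51 CPM in siNTRK2 and 1.51 to 2.01 CPM in siBDNF libraries. TPSAB1 and MS4A2 were at 0 in proliferating libraries and held 11 and 2 counts over the siCtrl senescent group. CPA3 was called higher in senescence, but had passed the filter through its senescent libraries. The part of these markers in the IL1RL1 result was not tested.

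Epithelial and endothelial cells also make IL-1 family proteins, and their markers were read beside IL1A and IL33. The 6 epithelial markers summed to 66.7 to 71.4 CPM in proliferating, 69.0 to 81.5 CPM in siCtrl senescent, 66.5 to 70.5 CPM in siNTRK2 and 69.7 to 72.3 CPM in siBDNF libraries. Nearly all of this was KRT8 and KRT18. Of the 4 tested, CDH1, the adhesion molecule of epithelia, rose in senescence from 0.0497 to 0.535 CPM (edgeR adjusted p = 1.04e-05). CDH1 passed the filter only through its senescent libraries, so it had to be higher there. KRT18 rose from 40.7 to 45.7 CPM (edgeR adjusted p = 0.0213). The keratinocyte keratins KRT5 and KRT14 were at 0 in proliferating cells and at 11 and 14 counts over the siCtrl senescent group. VWF and CDH5, the endothelial markers found in the tables, summed to 0.379 to 1.13 CPM in proliferating and 1.41 to 2.59 CPM in senescent libraries, with CDH5 at 0 in the former, and VWF rose in senescence from 0.765 to 1.86 CPM (edgeR adjusted p = 2.06e-04). Their part in the values of IL1A and IL33 was not tested.

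Levels per exon length, in RPKM (CPM per kilobase of exon), were used to compare the members with each other. In proliferating cells IL1R1 led at 12.1 RPKM, followed by IL1RAP at 0.625, IL18 at 0.191 and IL1B at 0.179 RPKM, the last pair overlapping. IL1A, IL1RL1, IL1R2 and IL33 were at 0.0283 RPKM or less and overlapped with their neighbours in that order. In siCtrl senescent cells IL1B had moved to the place after IL1R1, with 0.997 RPKM against 9.80, ahead of IL1RAP at 0.548 RPKM without overlap. IL1RL1 at 0.319, IL1A at 0.298, IL18 at 0.164 and IL33 at 0.129 RPKM each overlapped with the next, and IL1R2 at 0.0825 and IL1RN at 0.0235 RPKM stood apart below them.

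The siRNAs changed this order mainly through the ligands. With siNTRK2, IL1B was at 0.421 RPKM, below IL1RAP at 0.628 RPKM, and IL1A was at 0.0649 RPKM, overlapping with IL1R2 and IL33. With siBDNF, IL1B at 1.53 and IL1A at 0.782 RPKM both lay above IL1RAP at 0.635 RPKM, which overlapped with IL1RL1 at 0.593 RPKM. IL1RN was the lowest member in every group.

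**Figure D3:**
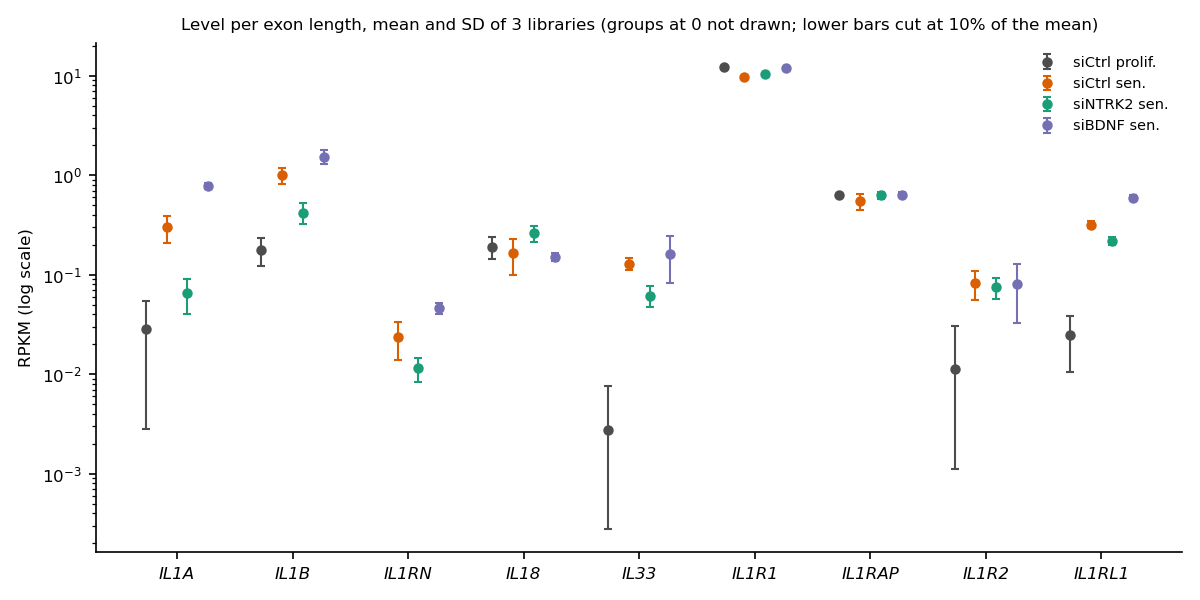
Mean RPKM (y axis, log scale) of the 9 members in the 4 groups, with the SD of 3 libraries as bars; groups at 0 are not drawn, and lower bars are shortened where the SD comes close to the mean or exceeds it. IL1R1 lies between 9.80 and 12.1 RPKM, and IL1B goes from 0.179 RPKM in proliferating to 0.997 RPKM in siCtrl senescent cells.

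Genes known to be induced by IL-1 in fibroblasts, 19 listed and 18 tested, moved largely in 1 direction with each siRNA. With siNTRK2, 12 of the 18 fell and none rose (median log2 fold change -0.55), where 10.0% of all genes fell and 11.1% rose. With siBDNF 8 rose and 1, the chemokine CCL2, fell (median 0.26), where 10.3% of all genes rose and 10.2% fell. Directly compared, 14 were lower with siNTRK2 than with siBDNF and none was higher (median -0.81), against 7.86% and 8.84% of all genes. In senescence itself 9 rose and 4 fell (median 0.54), against 29.8% and 28.3% of all genes. Of those that rose, CCL20 and CSF3 passed the filter through their senescent libraries, so they had to be higher there. The medians over all genes were -0.0024, 0.0040, -0.0037 and 0.02 in these comparisons. The list had been drawn up with results of these counts known, so the counts describe it and do not set it apart from other genes.

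Among these genes, CXCL8, the chemokine that recruits neutrophils, changed in the same direction as IL1B in each comparison with siCtrl senescent cells, although its siNTRK2 and proliferating libraries overlapped. It was at 13.3 CPM in proliferating, 37.7 in siCtrl senescent, 13.2 in siNTRK2 and 45.0 CPM in siBDNF cells. CXCL8 rose in senescence (log2 fold change 1.50, SE 0.0713, edgeR adjusted p = 2.95e-15), fell with siNTRK2 (-1.52, SE 0.0712, edgeR adjusted p = 1.28e-13) and rose with siBDNF (0.26, SE 0.0664, edgeR adjusted p = 0.00670). PTGS2, the inducible enzyme of prostaglandin synthesis, changed likewise by 1.57, -1.07 and 0.48, and MMP3, a matrix protease, by 2.56, -0.46 and 0.87. IL6, the cytokine most often used to mark the SASP, instead fell in senescence (-0.25, SE 0.0974, edgeR adjusted p = 0.0323) and with siNTRK2 (-0.29, SE 0.0997, edgeR adjusted p = 0.0402). With siBDNF the change in IL6 was 0.01 (SE 0.0985, edgeR adjusted p = 0.967). The NF-kB inhibitors NFKBIA and TNFAIP3, themselves induced by IL-1, fell in senescence by 0.44 and 1.02 on the log2 scale and rose with siBDNF by 0.25 and 0.44. ICAM1, an adhesion molecule, fell with siNTRK2 (-0.93) and was at -0.01 with siBDNF (edgeR adjusted p = 0.954).

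**Figure D4:**
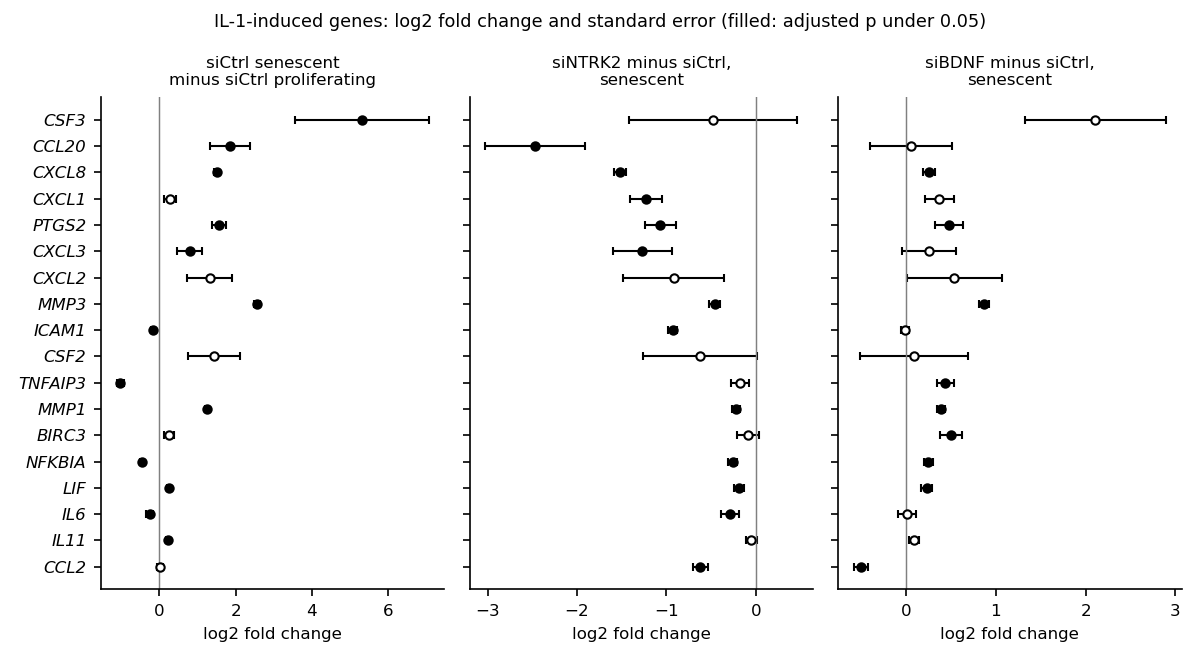
log2 fold change (x axis, with its own range in each panel) of 18 genes known to be induced by IL-1 in fibroblasts, ordered by their difference between siNTRK2 and siBDNF; bars are standard errors and filled points passed the test. In the panel of siNTRK2 against siCtrl all points lie left of 0, from CCL20 at -2.47 to IL11 at -0.05; the proliferating level of CSF3 was 0 counts, so its fold change in the left panel depends on the prior count.

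The intracellular signalling chain of the receptor, 14 genes that were all tested, moved less. In senescence 3 rose and 5 fell, with siNTRK2 2 rose and 3 fell, with siBDNF 2 rose and none fell, and in the direct comparison 1 was higher and 4 were lower with siNTRK2. Of all genes, 29.8% rose and 28.3% fell in senescence, 11.1% and 10.0% with siNTRK2 and 10.3% and 10.2% with siBDNF, and 8.84% were higher and 7.86% lower in the direct comparison, so with so few genes these counts do not set the chain apart. For siNTRK2 against siCtrl, the 5 calls became 2 without siCtrl senescent replicate 1 or siNTRK2 replicate 2. IRAK2, a kinase of the receptor complex, rose in senescence (0.54), fell with siNTRK2 (-0.22, SE 0.0772, edgeR adjusted p = 0.0453) and rose with siBDNF (0.35, SE 0.0759, edgeR adjusted p = 0.00149), and thus had the direction of IL1B each time. IRAK3, which dampens the pathway, fell with siNTRK2 by 1.01 on the log2 scale (SE 0.205, edgeR adjusted p = 8.17e-04), from 2.29 to 1.13 CPM, and was at 2.29 CPM with siBDNF. PELI2, a ubiquitin ligase of the pathway, fell in senescence from 13.9 to 4.01 CPM (log2 fold change -1.79, SE 0.104, edgeR adjusted p = 1.37e-13).

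The machinery that cleaves and releases IL-1 ligands, 13 genes of which 10 were tested, changed in both directions in senescence. It had 2 genes higher and 4 lower, where 29.8% of all genes were higher and 28.3% lower, so the counts are near those shares. Those lower were CASP1, which cleaves IL-1β and IL-18, its adaptor PYCARD, the pore protein GSDMD and CASP4. CASP1 fell from 32.2 to 11.9 CPM (log2 fold change -1.43, SE 0.0863, edgeR adjusted p = 3.18e-13), PYCARD from 10.7 to 5.31 CPM and GSDMD from 25.1 to 11.1 CPM. The sensor NLRC4 rose from 0.0435 to 0.701 CPM, and S100A13, a carrier of IL-1α in its release, from 127 to 160 CPM. NLRC4 passed the filter only through its senescent libraries, so it had to be higher there. With either siRNA 4 of the 10 fell and none rose. Of all genes, 10.0% fell and 11.1% rose with siNTRK2, and 10.2% fell and 10.3% rose with siBDNF. Those that fell were NLRP1, CAPN1 and CAPNS1 with both, S100A13 with siNTRK2 and CASP1 with siBDNF. The list is short and was drawn up with results of these counts known, so the counts only describe it. CAPN1 and CAPNS1 form a calpain that processes IL-1α. NLRP3, the best known sensor of this machinery, was under the filter with 4 to 14 counts per group.

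Among the other receptors and binding proteins, 5 of 7 were tested. In senescence 1 was higher and 2 were lower, where 29.8% and 28.3% of all genes were. With either siRNA 1 was higher, where 11.1% of all genes were with siNTRK2 and 10.3% with siBDNF. The IL-18 inhibitor IL18BP rose with both siRNAs, from 10.2 CPM in siCtrl to 12.7 CPM with siNTRK2 (edgeR adjusted p = 0.0111) and to 13.5 CPM with siBDNF (edgeR adjusted p = 0.00152). SIGIRR, an inhibitory receptor of the family, fell in senescence from 3.94 to 2.38 CPM (edgeR adjusted p = 2.62e-04). In the direct comparison SIGIRR was higher with siNTRK2 and IL1RAPL1 lower, where 8.84% of all genes were higher and 7.86% lower. However, 0 of the 5 genes were called without siNTRK2 replicate 1 or 2 or siBDNF replicate 1, and 1 without siBDNF replicate 2 or 3. The other ligands of the family (IL36A, IL36B, IL36G, IL36RN, IL37 and IL1F10) had 0 counts in proliferating cells and at most 26 counts over any senescent group, and none was tested.

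The genes most like each member were those whose log2(CPM + 0.5) had the highest Pearson correlation with it, among tested genes with a mean of at least 1 CPM. The libraries fall into 4 groups, so these correlations mostly reflect differences between groups and are given as a description. Over the 12 libraries, IL1A was most like CDCP1 (r = 0.977), B4GALT1 (0.976) and CYP1B1 (0.973), and IL1B was most like CYP1B1-AS1 (0.976), C15orf48 (0.974) and SLC31A1 (0.969). Over the 9 senescent libraries, IL1A was most like ITGA5 (0.994) and MT1X (0.990), and IL1B was most like ATP6V1C1 (0.981) and CLCN3 (0.979). IL33 was most like ZCWPW1 (0.950) and IL1R1 like RCC2 (0.946) over the 12 libraries.

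The members were also compared with each other over the 9 senescent libraries. The correlation of IL1A was 0.964 with IL1RL1, 0.922 with IL1B, 0.908 with IL1RN, 0.720 with IL33 and 0.643 with IL1R1, and it was -0.624 with IL18, -0.047 with IL1R2 and -0.032 with IL1RAP. For IL1B it was 0.887 with IL1RL1, 0.831 with IL33, 0.806 with IL1RN and 0.467 with IL1R1, -0.812 with IL18, 0.111 with IL1R2 and 0.082 with IL1RAP. Both ligands thus varied with IL1RL1, IL1RN and IL33 and opposite to IL18, and had correlations near 0 with IL1R2 and IL1RAP.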

How the data were processed

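Per the labels, libraries were made with a stranded kit for poly(A) mRNA. The authors deposited whole-number counts per Ensembl gene for each of the 12 libraries, not normalized. The submitters' processing notes name bcl2fastq 2.20.0.422, cutadapt, STAR 2.4.0j and featureCounts 1.6.4 on hg19 (GRCh37). Whether featureCounts used strand is not given in the sources used here. Library totals of 31567912 to 72328151 counts set the precision, and intervals and limits cover counting error only.

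Genes were kept by the default filterByExpr over the 4 groups, and all 12 libraries entered a single quasi-likelihood fit in edgeR 4.0.16 (R 4.3.3) with TMM scaling and a term per group. P-values are 2-sided and were adjusted by Benjamini-Hochberg over the 21518 genes. Standard errors are the log2 fold change over the root of F. CPM used TMM-scaled library sizes, and RPKM the union of exons in GENCODE v44, later than the authors' annotation. A fold against 0 counts used a limit of 3 counts over that group and took the counts of the other group as exact. The pipeline was tested on simulated data. Members, lists, motifs and tests were chosen with earlier results of these counts known. All members are named; of each list, members that passed the test or were under the filter may be. Alternatives were DESeq2 1.42.0 (Wald test, and its size factors), library totals, no filter, only the groups compared, the replicate block and each library left out. PECAM1 and SOD2 were not matched to a table row by symbol and are not analysed here.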

Additional observations from a re-analysis of the deposited data

Results flagged for a closer look

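In 4 of the 7 tested members other than IL1A, the levels differed when siNTRK2 and siBDNF were compared directly. All 4 were lower with siNTRK2, where 7.86% of all genes were lower and 8.84% higher. The log2 fold change of siNTRK2 minus siBDNF was -1.89 for IL1B, -1.43 for IL1RL1, -0.17 for IL1R1 and -1.42 for IL33, each called by edgeR's quasi-likelihood test. The IL33 call was lost whichever siNTRK2 or siBDNF library was left out, and the IL1R1 call without siBDNF replicate 2. IL1A is listed as a description only, having been singled out because of its values. Every siNTRK2 library lay below and every siBDNF library above the siCtrl senescent libraries for IL1A. Its difference of -3.60 between the silenced groups was not tested.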

How the results depend on the processing

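No member's difference that passed the test changed sign under an alternative. The number of members called stayed at 5 in senescence (5 to 6 with a library left out) and at 3 with siBDNF (2 to 4 with a library left out). For siNTRK2 against siCtrl it was 1, became 2 with the DESeq2 Wald test, which added IL1RL1, and was 1 to 2 with a library left out. For siNTRK2 against siBDNF it was 4, became 3 with the Wald test or with no filter, and was 2 to 3 with a library left out, the lowest without siBDNF replicate 2. The labels tie no replicate number to an experiment, and the deviations of same-numbered libraries from their group means correlated at -0.0614 to 0.0739. A replicate block left 5, 1, 3 and 3 members called in senescence, siNTRK2, siBDNF and the direct comparison, the IL33 difference of -1.42 becoming -1.36 (edgeR adjusted p = 0.0696). With no filter the IL33 p was 0.0584. The cause of these changes was not tested. Recounts of the pathway lists were added after the data were seen: signalling genes called with siNTRK2 went from 5 to 3 with no filter, with only the groups compared or with the replicate block, and with siBDNF from 2 to 4 with only the groups compared. Other receptors called with siBDNF went from 1 to 2 with library totals, the Wald test or only the groups compared, and processing genes called in the direct comparison from 3 to 1 with library totals or only the groups compared. IL1A, IL1RN, IL18, IL33 and IL1R2 had at most 116 counts in a library, which limits what could be called.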
